A study of Homo sapiens with 108 samples.

Results

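The subject here is the set of 136 mRNAs that lost their label fastest in HEK293T cells carrying a control hairpin. They were chosen by measured values, namely the lowest ratio of conversion rate at 4 h to that at 0 h of chase in those cells, out of 19761 genes in the tables. A gene could enter only with a read level above 20 CPM, which is reads scaled to library size, in each of the 12 control libraries and a conversion rate of at least 0.5% at 0 h, which left 3079 genes. Of the 150 lowest ratios, 14 belonged to genes set aside by name, among them JUN, JUND, IER5, SOX4, ID2, ID3, ID4 and several ZNF genes, and the remaining 136 are described. The other 2943 genes that passed the same minima are called the other mRNAs.

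HEK293T is a transformed human embryonic kidney line that carries the SV40 large T antigen. The cells were transduced with lentivirus carrying a short hairpin against the zinc-finger proteins ZNF706, ZMAT5, ZMAT3, ZFP36L1, MAZ or PHF7, the ubiquitin ligase CNOT4 or the DNA repair protein BRCA1, or a non-targeting hairpin (NT), and all of them were selected in puromycin. Every arm received 10 µM 4-thiouridine (4SU) for 24 h, with fresh medium every 8 h, and then 1 mM uridine for 0, 2, 4 or 8 h. The 9 arms have 4 chase times with 3 replicates each, described as biological, and libraries were read from the 3′ end of polyadenylated RNA. The question addressed was how depletion of each protein alters the lifetime of mRNAs. The cells of an arm are a selected pool, the labels name no hairpin sequence, and nothing in them ties a replicate of one arm to a replicate of another.

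In SLAM-seq, 4SU is built into RNA as it is made, and alkylation makes reverse transcriptase read the modified base as C. The conversion rate of an mRNA, which is T>C conversions as a share of covered T positions, falls during the chase as labelled molecules are degraded and unlabelled ones take their place. Messages that are replaced within a few hours typically encode transcription factors, signalling regulators and apoptosis regulators. Their 3′ UTRs often carry AU-rich elements, which are bound by ZFP36 family proteins, or Pumilio elements, and both kinds of protein recruit the CCR4-NOT deadenylase that shortens the poly(A) tail.

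The counted 3′ UTR sequence of the fast-losing mRNAs held such elements more often than that of the other mRNAs, and examples are printed because the values that follow refer to these mRNAs. Capitals mark the match to TATTTAT, the core of an AU-rich element, or to TGTANATA, the Pumilio-type octamer, with 11 bases on either side. All are read 5′ to 3′ on the strand of the gene from the hg38 reference. Each lies within the last 250 bases of the counted interval that held most reads. SLC38A2 has 2 matches to TGTANATA in that window, and the second lies unmarked in the printed flank of the first.
ZIC2, AU-rich, chr13:99986546-99986574, plus strand: acccgttaccaTATTTATccatttgtaat
ZIC2, AU-rich, chr13:99986599-99986627, plus strand: agaggaaacaaTATTTATaaagaatgttt
PMAIP1, AU-rich, chr18:59904209-59904237, plus strand: ttaccatctggTATTTATggtctaatttg
HOXD13, AU-rich, chr2:176095796-176095824, plus strand: aaagtgctgcaTATTTATacaattgagag
RCHY1, AU-rich, chr4:75479078-75479106, minus strand: gtacaatgcatTATTTATtatactcacca
RSRP1, Pumilio-type, chr1:25242443-25242472, minus strand: acacaaaaagaTGTAAATActtaacactca
SLC38A2, Pumilio-type, chr12:46358312-46358341, minus strand: tattaactttgTGTATATAgtgtaaatatc
POLR1B, Pumilio-type, chr2:112577100-112577129, plus strand: atagatcatctTGTATATActtctgcaatt
PPP1R15B, Pumilio-type, chr1:204403423-204403452, minus strand: aattatatttgTGTATATAacataactaat

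In that window of 250 bases, TATTTAT was present in 19 of the 136 fast-losing mRNAs (14.0%), against 208 of the 2673 other mRNAs whose interval was long enough (7.78%). TGTANATA was present in 23 (16.9%) of the fast-losing mRNAs, against 210 (7.86%) of the others. The plain pentamer ATTTA was common in both groups, at 53.7% and 43.7%, and a run of T, TTTTTTT, was present in 24.3% and 17.6%. Over all counted bases the shares were 52.9% and 33.5% for TATTTAT and 57.4% and 30.3% for TGTANATA, but the fast-losing mRNAs also had more counted bases, median 2422 against 1806. The windows of equal length differed in composition too, with a median of 66.8% A and T in the fast-losing mRNAs and 63.2% in the others. ATTTA lies within TATTTAT, only the sense strand was searched, and a match is a description of the letters and no evidence of binding. The part of length and base composition in these shares was not tested.

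**Figure D1:**
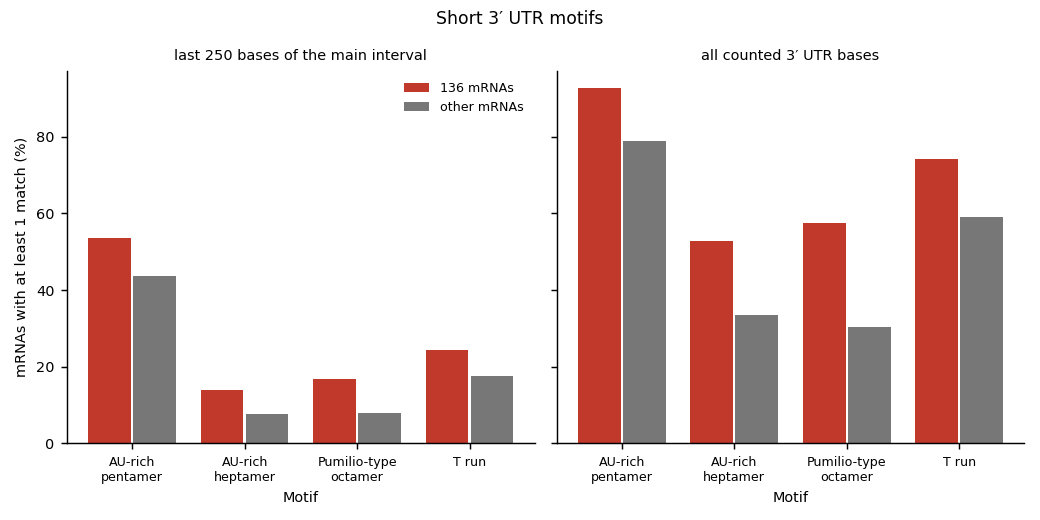
Share of mRNAs (%) with at least 1 match to each motif, for the 136 fast-losing mRNAs (red) and the other mRNAs (grey), in the last 250 bases of the main counted interval (left) and over all counted 3′ UTR bases (right). The red bar is the taller for each motif, for example 16.9% against 7.86% for the Pumilio-type octamer in the window.

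Several libraries stood apart from the rest before any result. Libraries held 63659 to 30750027 reads in 3′ UTRs, and 8206060 to 13359455 in NT. The median was 10187470 reads in NT and 8901564 in BRCA1. It was 17141085 to 21007825 in MAZ, PHF7, ZMAT3, ZMAT5 and ZNF706, 4529224 in CNOT4 and 6158870 in ZFP36L1. Only BRCA1 was thus near NT in depth, and the part of depth in differences from NT was not tested. The PHF7 8 h replicate 3 library held only 63659 reads, and the CNOT4 2 h replicate 3 library held 1781724 reads in 6495 detected genes. Coverage of T was thinner in 2 arms, at 27.7 to 34.0 T positions per read in CNOT4 and 25.9 to 33.0 in ZFP36L1, against 37.1 to 37.8 in NT, and these arms held up to 11.9% and 12.4% multimapped reads, against at most 6.91% in NT. The headers of the CNOT4 8 h files name the experiment in a different way, as a pulse-chase. These 8 h libraries had 32.5 to 34.0 T positions per read and 5.82% to 5.91% multimapped reads. The CNOT4 libraries at 0 to 4 h had 27.7 to 31.3 and 9.34% to 11.9%. The targeted mRNA averaged 26.1 CPM under the BRCA1 hairpin and 46.2 CPM in NT, 52.6 and 424 for MAZ, 3.77 and 14.2 for ZMAT3, 0.797 and 7.43 for ZMAT5, and 11.5 and 23.3 for ZNF706. CNOT4 mRNA averaged 20.9 ± 8.80 CPM and 23.3 ± 7.29 CPM in NT (SD, n = 12 each), and PHF7 mRNA was too thinly covered to judge, at 0.709 and 2.10 CPM. ZFP36L1 mRNA was higher in the libraries labelled ZFP36L1, 29.4 ± 4.48 CPM against 18.4 ± 8.39 CPM in NT (SD, n = 12 each). In what follows ZFP36L1 thus stands for the libraries labelled ZFP36L1. Within these data, each direction given for them rests on the label alone. The methods state that knockdown in the cells of this assay was checked by qPCR, whose values are not taken up here. Of the markers of the line, VIM, LIN28B, IGF2BP1, NEFM and NEFL were present in each NT library, while KRT8 was at 0 to 7.24 CPM and PAX2 at 0 to 1.72 CPM. Of 8 markers of other cell types, PTPRC, HBB, PECAM1, ALB and TYR were at 0 in all NT libraries, CD3E reached 0.0406 CPM and CD68 3.34 CPM. COL1A1, a collagen of fibroblasts, was present in each NT library at 1.51 to 18.5 CPM and reached 165 CPM over all arms.

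All 136 mRNAs are protein coding. Their median level in NT ran between 29.0 and 345 CPM, and their rates at 0 h rested on 949 to 33266 conversions per mRNA over the 3 NT libraries. At 4 h the conversions behind a rate fell to a median of 427, and to 27 for HOOK3, so the lowest ratios rest on few conversions. Another gene shares counted bases with 8 of the 136, and reads were nearly all multimapped in PPP1R10 (100%), CLK2 (99.9%) and SOCS7 (99.7%), whose values may belong in part to near-identical copies. Between 2.60% and 18.3% of the 0 h rate was kept at 4 h in NT, with a median of 13.2%, against a median of 63.8% in the other mRNAs, and this difference is what the choice of the mRNAs fixes. The last inside the limit were CDT1, a DNA replication licensing factor, at 18.20% and RBM26, an RNA-binding protein, at 18.31%. The nearest outside it were ODR4 at 18.34% and DDX42 at 18.48%, so the limit falls in a continuous range. When the same rule was applied to NT with 1 replicate left out, the mRNAs so chosen kept a median of 10.6% to 11.8% in the replicates used. They kept 15.3%, 18.4% and 17.9% in the replicate left out, against 59.2%, 63.5% and 59.6% for the other mRNAs there. The ratio thus ran lower where it had served for the choice. In the left-out replicates 122 of 138, 121 of 135 and 126 of 139 chosen mRNAs were still below the median of all mRNAs.

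Transcription factors and cofactors made up 25 of the 136, out of 97 that passed the minima (25.8%), against 4.42% of all mRNAs that passed. That list was drawn up by symbol and so also holds ZFP36L2, which binds mRNA and not DNA. It is not complete, and leaves out CTCF and the corepressors JARID2 and TLE4, for example, which stand on no list. Apoptosis, p53 and stress regulators gave 6 of 11 (54.5%), namely DNAJB1, MCL1, PMAIP1, PPP1R15B, XBP1 and XIAP. Signalling regulators gave 5 of 38 (13.2%), mRNA decay and RNA-binding factors 9 of 112 (8.04%) and ubiquitin ligases and adaptors 6 of 91 (6.59%). Cell cycle genes gave 4 of 78 (5.13%) and metabolic enzymes and carriers 3 of 85 (3.53%), close to the share of all mRNAs. On no list were 80 of the 136. These shares describe what the choice gathered, and the lists were drawn up with the short-lived classes of mRNA in mind.

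Among the transcription factors, ZIC2, a zinc-finger regulator of neural development, had NT rates of 2.25%, 2.91% and 3.40% at 0 h. They were 0.767%, 1.31% and 0.789% at 2 h, 0.173%, 0.144% and 0.209% at 4 h, and 0.0416%, 0.0370% and 0.0639% at 8 h. Each chase time lay below the one before it with no overlap between replicates. MYC, a regulator of growth genes, had rates of 2.49%, 3.86% and 4.64% at 0 h, 0.988%, 1.35% and 0.715% at 2 h, 0.228%, 0.810% and 0.435% at 4 h, and 0.00180%, 0.105% and 0.239% at 8 h. The MYC replicates spread widely, and its range at 4 h overlaps those at 2 h and at 8 h, while 2 h and 8 h do not overlap. HEY1, a Notch effector with the most conversions of the set, had 3.77%, 3.44% and 3.18% at 0 h, 1.46%, 1.46% and 1.57% at 2 h, 0.473%, 0.504% and 0.641% at 4 h, and 0.122%, 0.191% and 0.268% at 8 h. Its replicates lay close together at each time, and no 2 times overlapped.

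Of the signalling and stress regulators, RHOB, a small GTPase of the endosome and actin network, had NT rates of 2.91%, 2.68% and 2.52% at 0 h, 1.41%, 0.984% and 1.11% at 2 h and 0.0655%, 0.0593% and 0.261% at 4 h. At 8 h they were 0.0786%, 0.0184% and 0.00515%, so that 4 h and 8 h overlapped. MCL1, an anti-apoptotic protein of the BCL2 family, had 3.46%, 3.10% and 2.51% at 0 h, 1.58%, 1.91% and 1.56% at 2 h, 0.514%, 0.268% and 0.451% at 4 h, and 0.0659%, 0.0590% and 0.0261% at 8 h. The 4 MCL1 chase times did not overlap.

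HOOK3, an adaptor of the dynein motor, had the lowest ratio of the set and was the least even. It had 0.260%, 1.70% and 1.89% at 0 h, 1.09%, 1.10% and 1.07% at 2 h, and 0%, 0.0396% and 0.0603% at 4 h. A HOOK3 rate of 2.60% of the start at 4 h in NT stood beside 0.978% in the BRCA1 arm and 37.6% to 98.3% in the other 7 knockdowns.

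Of the other mRNAs with the lowest NT values, POLR1B kept 4.23% at 4 h, EIF1AD 5.30%, the secreted protease ADAMTS1 5.39%, HOXB8 6.81%, ANKRD17 7.02%, PPP1R10, a regulator of protein phosphatase 1, 7.14%, and RSRP1 7.77%. STC2 kept 7.86%, MAT2A 7.86%, the signalling adaptor CRKL 7.93%, TMEM245 8.29%, JARID2 8.31%, DDI2 8.41%, SAC3D1 8.65% and WIPF2 8.70%. Between them these mRNAs span chromatin, metabolism, signalling and transcription of ribosomal RNA.

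**Figure D2:**
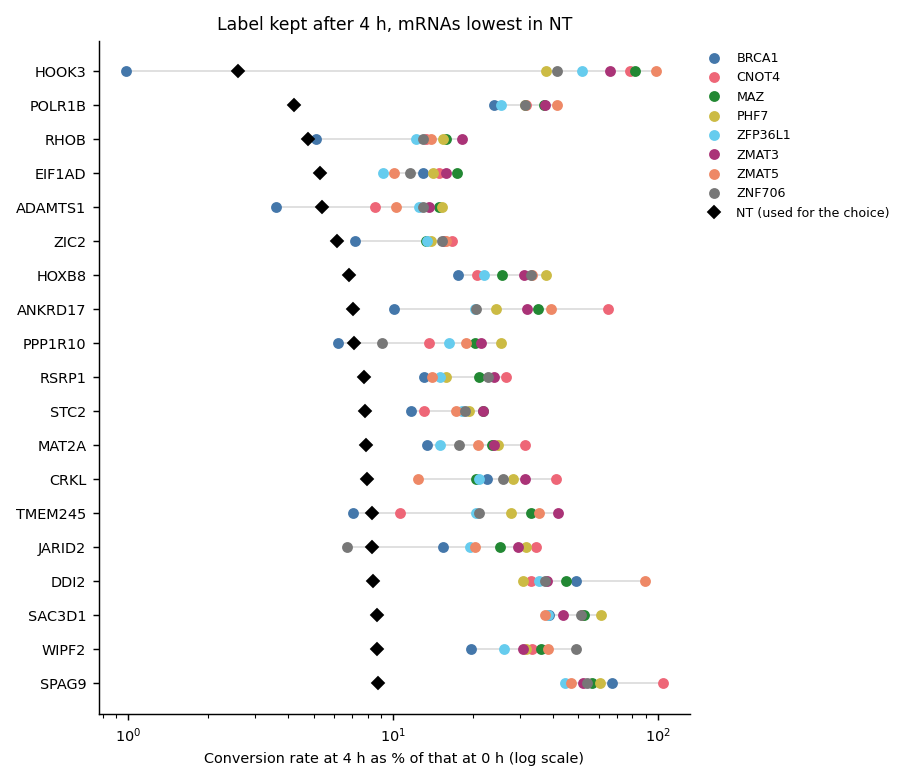
Conversion rate at 4 h as a percentage of that at 0 h (log scale) for 19 of the 20 mRNAs with the lowest value in NT and at least 200 conversions at 0 h. Circles are the 8 knockdowns and black diamonds are NT, from which the mRNAs were chosen, and NT is at or near the left end of most lines, with HOOK3 at 0.978% to 98.3% the most scattered.

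The same mRNAs were then followed in the knockdowns, whose rates took no part in the choice. Pooled over the 136 mRNAs, the NT rate was 2.70 ± 0.17% at 0 h, 1.31 ± 0.07% at 2 h, 0.355 ± 0.009% at 4 h and 0.135 ± 0.022% at 8 h (SD, n = 3 each). The other mRNAs had 1.78 ± 0.08%, 1.44 ± 0.06%, 1.14 ± 0.02% and 0.719 ± 0.034%. Labelling at the start differed between arms, with 0 h means of the other mRNAs from 1.26% in ZMAT5 to 2.93% in ZMAT3. At 0 h the fast-losing mRNAs carried 1.39 to 1.50 times the rate of the others in the 8 knockdowns. The 1.52 times in NT is in part set by the choice, which divides by the NT rate at 0 h. By 8 h they carried less than the others in each arm. The share of a library's reads that fell in these mRNAs was 1.44% to 2.11% over arms and times.

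**Figure D3:**
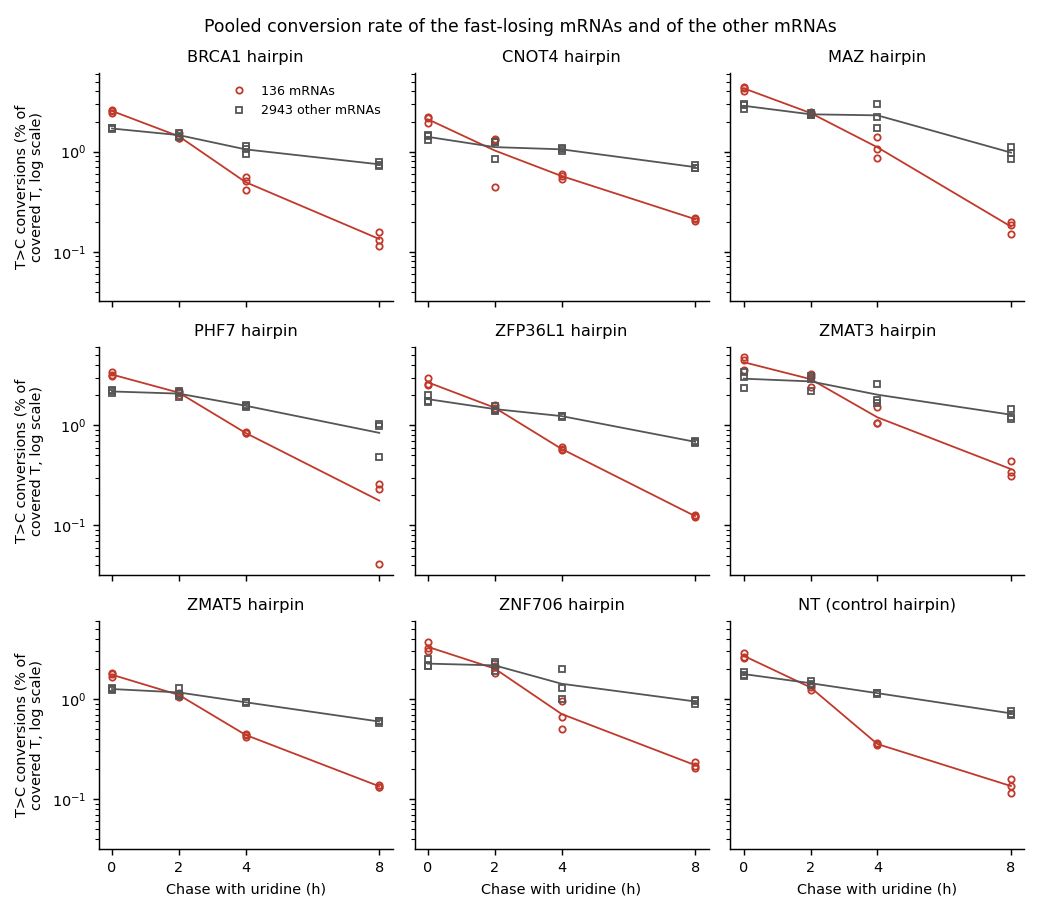
Pooled T>C conversion rate (% of covered T, log scale) over hours of chase in each arm, with 1 point per library and lines through the means of 3 replicates, for the 136 fast-losing mRNAs (red) and the 2943 other mRNAs (grey). The red line starts above the grey one at 0 h in each arm and ends below it at 8 h, and the lowest red point at 8 h in the PHF7 arm is the library of 63659 reads.

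At 4 h the fast-losing mRNAs kept a median of 20.3% of their 0 h rate in the BRCA1 arm, 25.7% in CNOT4, 25.7% in MAZ, 26.9% in PHF7, 21.4% in ZFP36L1, 29.2% in ZMAT3, 25.2% in ZMAT5 and 21.1% in ZNF706. The other mRNAs kept 59.6%, 72.4%, 81.3%, 73.2%, 67.6%, 69.8%, 72.7% and 61.7% in the same arms. Their pooled rates at 4 h in MAZ were 2.99%, 1.71% and 2.22%. Replicate 1 there lay above the MAZ rates at 2 h, 2.33% to 2.43%, and raises the 81.3%. The 4 h replicates also spread widely in ZMAT3, 1.69% to 2.61%, and in ZNF706, 1.01% to 1.98%. In each knockdown 130 to 136 of the 136 lay below the median of all mRNAs of that arm. They supplied between 55 of the arm's own lowest 150, in BRCA1 (40.4% of the 136 and 36.7% of the 150), and 79, in MAZ (58.1% and 52.7%). The medians in the knockdowns stand above the 13.2% of NT in each arm, and since the mRNAs were picked for low values in NT this order says nothing of the knockdowns.

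A group of 20 was among the lowest 150 of all 8 knockdowns. It holds the transcription factors MYC, HEY1, ZIC2, FOXC1, HOXA5, TBX3 and ZBTB7A, the mRNA-destabilising protein ZFP36L2, and the cell cycle kinase WEE1. The signalling genes RHOB, CCN1 and PPP1R10, the kinase PIM3, the heat shock co-chaperone DNAJB1, the amino acid transporter SLC38A2, the ligase RNF146, and STC2, ADAMTS1 and EIF1AD bring the number named to 19. RHOB kept 5.10% in BRCA1, 13.3% in CNOT4, 15.8% in MAZ, 15.4% in PHF7, 12.2% in ZFP36L1, 18.2% in ZMAT3, 13.9% in ZMAT5 and 12.9% in ZNF706, against 4.76% in NT. ZIC2 kept 7.20% to 16.6% in the knockdowns, against 6.13% in NT, and MYC 2.96% to 16.2%, against 13.4% in NT. For RHOB and ZIC2 NT was the lowest of the 9 arms, and for MYC only ZNF706 was higher.

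At the other end, 26 of the 136 were in the lowest 150 of no knockdown, a count likewise not taken for the other mRNAs. Some had among the lowest NT values, such as POLR1B, a core subunit of RNA polymerase I, DDI2, a protease that activates NFE2L1, and SAC3D1. SPAG9, a scaffold of JNK signalling, kept 8.73% in NT and 44.7% to 104% in the knockdowns. Of the 136, 126 were below the median of all mRNAs in all 8 knockdowns. HOOK3 and WDR73 were above it in 3 knockdowns, SPAG9 and AGFG1 in 2, and DDI2, CPSF7, FEM1A, TBL2, RAB3GAP1 and MRS2 in 1. Of the 25 on the list of transcription factors, 8 were in the lowest 150 of all 8 knockdowns, ZFP36L2 among them, and 1 in none. Of the 80 mRNAs on no list, 4 were in all and 21 in none. The 80 include regulators of transcription that the list leaves out, such as CTCF, JARID2 and TLE4. The groups are thus not cleanly split by role.

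Fitted over 0 to 8 h in the knockdowns, the median loss of the fast-losing mRNAs was 0.358 per h, a half-life of 1.93 h, against 0.128 per h and 5.40 h in the other mRNAs. A slope could be fitted in all 8 knockdowns for 135 of the 136, all but HOXB8, and their median loss over the knockdowns ran between 0.159 and 0.456 per h. The half-life was 1.78 h against 5.25 h in BRCA1, 2.39 h against 6.95 h in CNOT4, 1.68 h against 4.56 h in MAZ and 2.04 h against 5.79 h in PHF7. It was 1.70 h against 4.50 h in ZFP36L1, 2.14 h against 5.85 h in ZMAT3, 2.05 h against 5.77 h in ZMAT5 and 1.88 h against 5.21 h in ZNF706. CNOT4 and ZMAT3 were the slowest arms in both groups of mRNAs, and MAZ and ZFP36L1 the fastest. The CNOT4 slope joins earlier libraries to 8 h libraries of another T coverage and multimapped share. By list, the half-life was 1.70 h for apoptosis, p53 and stress regulators, 1.77 h for metabolic enzymes and carriers and 1.78 h for transcription factors. It was 1.79 h for cell cycle genes, 1.85 h for signalling regulators, 1.86 h for ubiquitin ligases, 2.02 h for mRNA decay and RNA-binding factors and 2.00 h for mRNAs on no list. These values assume first-order loss with no label taken up during the chase.

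The 2 h and 8 h libraries of NT gave no rate to the choice, so loss between them could be tested. By edgeR's quasi-likelihood test on conversions with T coverage as offset, 81 of the 136 had a lower rate at 8 h than at 2 h (59.6%). Of all mRNAs tested 18.4% were called so, and of the other mRNAs that passed the minima 933 of 2943 (31.7%). The estimate at 8 h was below that at 2 h for all 136, against 2787 of the 2943 others, and the median 8 h rate was 8.25% of that at 2 h, against 42.4% in the others. MCL1 fell to 3.00% of its 2 h rate (log2 difference -5.06 ± 0.37 SE, edgeR adjusted p = 5.71e-06), with the 3 rates at 8 h all far below the 3 at 2 h. HEY1 fell to 13.0%, HOXD13 to 5.75%, HOXA9 to 8.27% and ZIC2 to 5.00%, all of them developmental transcription factors. IMP3, a protein of ribosomal RNA processing, fell to 6.61%, EAF1, a transcription elongation factor, to 6.70% and YTHDF3, a reader of methylated adenosine, to 3.82%. Leaving out 1 replicate lowered the count to between 40 and 53 of the 136.

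Whether the knockdowns differed from NT was tested over 2 to 8 h alone, since over the whole chase the choice of mRNAs in NT would pull the comparison to slower loss in the knockdowns. Of 135 mRNAs fitted, 3 were called and all 3 lost label more slowly in the 8 knockdowns as a group, where 1.77% of all mRNAs tested were called in either direction. Both counts are small shares, and nothing particular to the fast-losing mRNAs is read from the 3. The median loss was 0.384 per h in the knockdowns and 0.416 per h in NT, and 0.149 and 0.143 per h in the other mRNAs. Of the 135, 78 had the slower estimate in the knockdowns and 26 had an unadjusted p under 0.05, against 1413 and 182 of the 2931 others that were fitted.

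RCHY1, a ubiquitin ligase of p53, lost 0.299 per h in the knockdowns and 0.762 per h in NT (difference -0.462 ± 0.106 SE, edgeR adjusted p = 0.0107). Its 8 h rate in the 23 knockdown libraries with coverage was lowest at 0.00446%, median 0.285% and highest at 1.33%, against 0.0116%, 0.00358% and 0.0116% in NT, with 2 knockdown libraries in or below the NT range. ZFP36L2, which itself binds AU-rich elements, lost 0.357 per h in the knockdowns and 0.763 per h in NT (difference -0.406 ± 0.104 SE, edgeR adjusted p = 0.0262). The lowest, median and highest ZFP36L2 rates at 8 h were 0.0330%, 0.138% and 0.303% in 23 knockdown libraries, against 0.0181%, 0.00697% and 0% in NT, and the groups did not overlap. MAT2A, the enzyme that makes S-adenosylmethionine, lost 0.407 per h in the knockdowns and 0.624 per h in NT (difference -0.217 ± 0.059 SE, edgeR adjusted p = 0.0378). Its 8 h rates were 0.0269%, 0.122% and 0.373% in 23 knockdown libraries, against 0.0441%, 0.0124% and 0.0202% in NT, and 1 knockdown library overlapped. MAT2A shares counted bases with another gene and had 18.7% multimapped reads. All 3 differences rest on the 3 NT libraries at each time. Of the knockdowns only BRCA1 was near NT in median depth, and the part of depth in these differences was not tested. Without replicate 3 of each group edgeR called 12. Without replicate 1 or without replicate 2, 44 of the 136 could still be fitted, and edgeR called 0 of them, with 4 and 2 at an unadjusted p under 0.05. By limma on log2 rates 0 were called, with 4 at an unadjusted p under 0.05.

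Loss was also compared among the 8 knockdowns with NT left out, and 13 of 135 fast-losing mRNAs were called (9.63%), against 2.15% of all mRNAs tested and 51 of 2930 (1.74%) of the other mRNAs that passed the minima. The knockdown with the slowest loss was CNOT4 for 7 of the 13, ZMAT5 for 3, PHF7 for 2 and ZNF706 for 1. The fastest was BRCA1 for 9, ZFP36L1 for 2, and MAZ and PHF7 for 1 each. The arms differed at large too. The median loss ran from 0.290 per h in CNOT4 to 0.413 in MAZ in the fast-losing mRNAs. In the others it ran from 0.0997 in CNOT4 to 0.154 in ZFP36L1. The test takes slopes in absolute terms with no term for such arm-wide shifts, which are larger in fast-losing mRNAs. Nothing particular to these mRNAs is therefore read from the larger share called. The 13 include the transcription factors HOXA9, FOXC1 and MYC and the corepressors TLE4 and JARID2. The apoptosis inhibitor XIAP, the kinase PIM3, the phosphatase subunit PPP4R2, FIGNL1, RAB3GAP1 and RSRP1 bring the number named to 11.

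HOXA9, a homeobox factor, lost 0.446 ± 0.038 per h in ZFP36L1, 0.442 ± 0.038 in MAZ, 0.435 ± 0.035 in ZNF706, 0.392 ± 0.036 in BRCA1, 0.351 ± 0.036 in ZMAT5, 0.340 ± 0.036 in PHF7, 0.291 ± 0.034 in ZMAT3 and 0.215 ± 0.033 in CNOT4 (SE; edgeR adjusted p over the 8 knockdowns 0.00210). The 8 h rates of HOXA9 were 0.0737%, 0.0829% and 0.0873% in ZFP36L1 and 0.303%, 0.375% and 0.347% in CNOT4, with no overlap, while at 0 h they were 2.55%, 2.74% and 2.20% in ZFP36L1 and 2.16%, 1.61% and 1.98% in CNOT4. HOXA9 shares counted bases with another gene. FOXC1, a forkhead factor, lost 0.485 ± 0.026 per h in MAZ and 0.310 ± 0.023 per h in CNOT4, the fastest and the slowest arm (SE; adjusted p 0.00498). Its rates at 0 h were 4.58%, 4.76% and 4.60% in MAZ and 1.96%, 2.04% and 2.21% in CNOT4, while at 8 h they were 0.0819%, 0.129% and 0.0876% in MAZ and 0.139%, 0.180% and 0.208% in CNOT4. The order of the arms was thus opposite at the start and at the end of the chase. The same held for all fast-losing mRNAs pooled, at 4.29% in MAZ and 2.11% in CNOT4 at 0 h, and 0.178% and 0.2115% at 8 h. The other mRNAs had 2.87% in MAZ and 1.405% in CNOT4 at 0 h, and kept that order at 8 h, with 0.978% and 0.701%.

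FIGNL1, an AAA ATPase of homologous recombination, lost 0.749 ± 0.076 per h in BRCA1 and 0.196 ± 0.055 per h in CNOT4, with the other 6 knockdowns between 0.328 and 0.433 per h (adjusted p 0.00498). Its 8 h rates were 0.00615%, 0.00742% and 0.0354% in BRCA1 and 0.281%, 0.344% and 0.366% in CNOT4, which did not overlap. RAB3GAP1, a subunit of a GTPase-activating complex for RAB3, lost 0.588 ± 0.070 per h in BRCA1, against 0.141 to 0.267 per h in the other 7 knockdowns (adjusted p 0.00855). RAB3GAP1 rates at 8 h were 0.00494%, 0.0272% and 0% in BRCA1, and 0.468% and 0.982% in the 2 PHF7 libraries that covered it. MYC lost 0.670 ± 0.066 per h in BRCA1 and 0.668 ± 0.069 per h in ZMAT5, against 0.374 to 0.472 per h in the other 6 knockdowns (adjusted p 0.0397). At 4 h the MYC rates were 0%, 0.0112% and 0.323% in BRCA1 and 0.236%, 0.0664% and 0.0303% in ZMAT5, against 0.353%, 1.02% and 0.660% in ZNF706. At 8 h, 3, 8 and 13 of the fast-losing mRNAs had no conversions in the 3 BRCA1 libraries. The counts were 0, 7 and 5 in CNOT4, 0, 0 and 128 in PHF7, and 0 or 1 in each other knockdown library. At 4 h they were 6, 2 and 4 in BRCA1, 3, 0 and 10 in CNOT4, and 0 to 2 in each other library. The part of depth and of such sparse counts in the BRCA1 slopes was not tested.

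**Figure D4:**
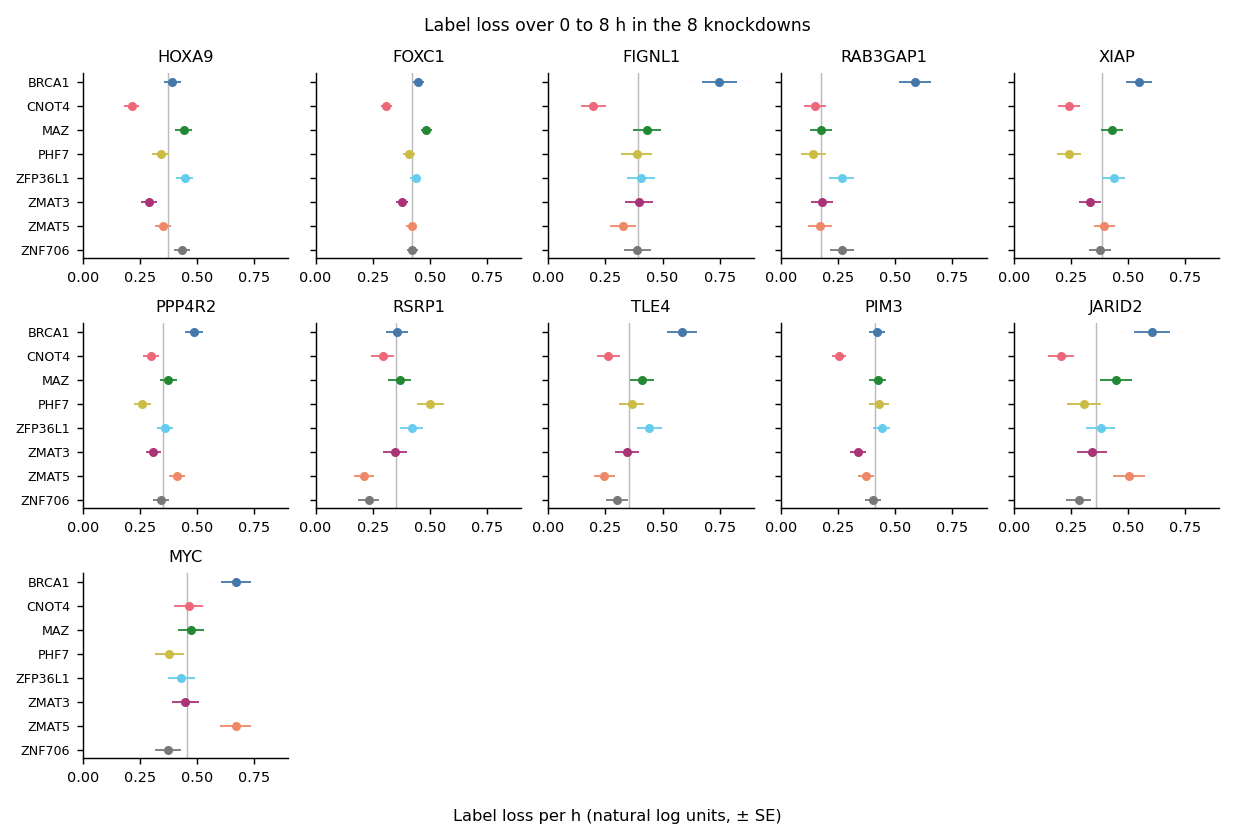
Label loss per h over 0 to 8 h (natural log units, points ± SE) in the 8 knockdowns for 11 of the 13 mRNAs called different among them, with the grey line at the median of the 8 knockdowns. CNOT4 lies lowest for 6 of these 11 and BRCA1 highest for 7, for example FIGNL1 at 0.749 per h in BRCA1 and 0.196 per h in CNOT4.

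The CNOT4 and ZFP36L1 libraries, which cover fewer T per read, bear on this count. Without them 4 of the fast-losing mRNAs were called. With all 8 knockdowns, limma on log2 rates called 0, with 18 at an unadjusted p under 0.05. Without replicate 3 of each group 11 were called. Without replicate 1 or 2 only 44 of the 136 could be fitted, and edgeR called 2 and 0 of them, with 9 at an unadjusted p under 0.05 in the case of 0. Within the CNOT4 arm the 8 h libraries differ from the earlier ones in T coverage and multimapped share, so chase time and library change go together there. Over 0 to 4 h alone, a fit of fewer libraries, the 8 mRNAs with the smallest p were no longer called. The part of T coverage per read and of this change within CNOT4 in the order of the arms was not tested.

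The read level over the chase stands beside the rates, and its part in their fall was not tested. Over the 9 arms, 22 of the 136 had a level that differed between chase times (16.2%), against 5.78% of all mRNAs tested and 456 of 2943 (15.5%) of the others that passed the minima. The share was thus close to that of the others, but the direction was not mixed. All 22 were higher at 8 h than at 0 h, against 127 of the 456 called among the others. The median log2 difference to 0 h was 0.04, 0.06 and 0.11 at 2, 4 and 8 h in the fast-losing mRNAs and -0.04, -0.06 and -0.08 in the others.

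JARID2, an accessory protein of Polycomb complex PRC2, was higher by 0.54 (log2) at 8 h than at 0 h (edgeR adjusted p over the 4 times 0.000459), and SLC38A2 by 0.40 (adjusted p 0.00103). KHDC4, an RNA-binding splicing factor, was higher by 0.58 at 4 h and 0.36 at 8 h (adjusted p 0.000451). DNAJB1 was higher by 0.35 at 4 h and 0.16 at 8 h, FOXC1 by 0.22 at 8 h, ZIC2 by 0.33, HOOK3 by 0.31 and HOXD13 by 0.32 at 8 h. In NT alone edgeR called 0 of the 136, with 12 at an unadjusted p under 0.05, and 1 gene of all tested. The count was 35 without the CNOT4 2 h replicate 3 library, an alternative added after the data were seen, and 3, 1 and 29 without replicate 1, 2 and 3.

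Expression in each knockdown was compared with NT over 12 libraries each, with chase time as a factor, and an mRNA was called at an edgeR adjusted p under 0.05 with a fold over 1.2. The 8 comparisons share the same NT libraries, so their values stand side by side and are not independent of each other. Median depth was near that of NT in BRCA1 alone, and the part of depth in the calls was not tested. CPM here are scaled to the reads in 3′ UTRs with edgeR's normalisation, and so run higher than the deposited CPM given above. In these bulk samples, less RNA per cell and fewer cells cannot be told apart. Of the 136, 116 were called in at least 1 comparison (85.3%) and 20 in none, against 2567 of the 2943 others that passed the minima (87.2%) and 50.4% of all mRNAs tested in the 8 comparisons.

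**Figure D5:**
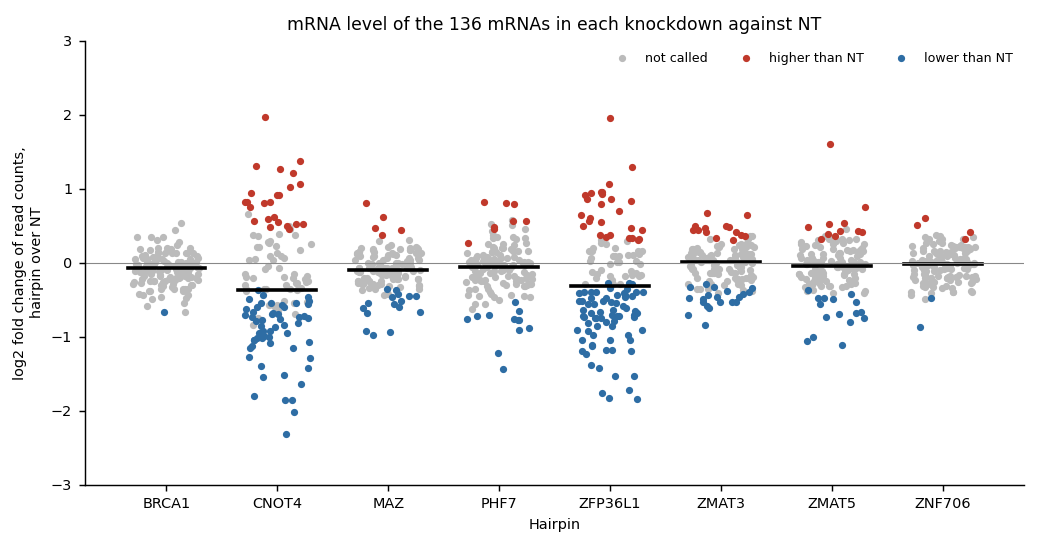
log2 fold change of read counts (hairpin over NT) of the 136 fast-losing mRNAs in each knockdown, 1 point per mRNA, red where called higher, blue where called lower, grey where not called, with a black line at the median. The spread is widest in CNOT4 and ZFP36L1, where the medians are -0.37 and -0.32, and narrowest in BRCA1, where PMAIP1 at -0.67 is the one mRNA called.

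In the libraries labelled ZFP36L1, whose own target was not lower, 27 of the 136 were higher and 71 lower than in NT. Of all mRNAs tested, 20.9% were called higher and 18.9% lower, and of the others that passed the minima 22.7% and 45.2%, so a tilt to lower levels was shared by well-expressed mRNAs at large. The median log2 fold was -0.32 in the fast-losing mRNAs and -0.21 in the others. RHOB was at 32.3, 46.6 and 55.8 CPM (lowest, median, highest) in ZFP36L1 and at 103, 169 and 225 CPM in NT, a log2 fold of -1.85 ± 0.11 (SE, edgeR adjusted p = 1.42e-15). RNF146, a ligase that reads poly(ADP-ribose), was at 13.1, 19.7 and 26.9 CPM in ZFP36L1 and at 41.5, 73.5 and 127 CPM in NT (log2 fold -1.83 ± 0.17). Neither overlapped between arms. MYC was at 14.9, 34.8 and 40.9 CPM in ZFP36L1 and at 46.7, 115 and 186 CPM in NT (log2 fold -1.77 ± 0.18), and HOXB8, a homeobox factor, had a log2 fold of -1.73 ± 0.17, and neither overlapped. NKTR, a cyclophilin-type protein, rose to 471, 584 and 855 CPM in ZFP36L1, against 103, 153 and 236 CPM in NT (log2 fold 1.96 ± 0.12, edgeR adjusted p = 2.53e-15). HOXA5 had a log2 fold of 1.29 ± 0.10, the RNA-binding protein ATXN2 1.07 ± 0.15 and the histone demethylase KDM2A 0.96 ± 0.10, with no overlap for NKTR, HOXA5 and KDM2A and a slight one for ATXN2. Over all 136, 4 higher (2.94%) and 19 lower (14.0%) mRNAs did not overlap between the 12 and 12 libraries, against 7.37% and 14.7% of the others that passed the minima and 3.75% and 3.82% of all mRNAs tested.

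In the CNOT4 arm, where CNOT4 mRNA itself was near its NT level, 24 were higher and 56 lower. Of all mRNAs tested 12.6% were higher and 14.1% lower, and of the others that passed the minima 14.7% and 41.1%, with medians of -0.37 in the fast-losing mRNAs and -0.34 in the others. MYC was at 0, 24.7 and 40.3 CPM (lowest, median, highest) in CNOT4 and at 49.3, 122 and 195 CPM in NT (log2 fold -2.31 ± 0.34 SE, edgeR adjusted p = 3.69e-06), and the groups did not overlap. HEY1 was at 56.2, 189 and 268 CPM in CNOT4 and at 514, 630.2 and 749.5 CPM in NT (log2 fold -1.85 ± 0.17), also without overlap. HOXB8 had a log2 fold of -2.02 ± 0.34 and PPP1R15B, a subunit of the eIF2α phosphatase, -1.85 ± 0.31. NKTR was at 451, 667 and 922 CPM in CNOT4 and at 107.8, 161 and 250.1 CPM in NT (log2 fold 1.97 ± 0.14), again with no overlap. KDM2A had a log2 fold of 1.38 ± 0.14, the kinase TAOK1 1.30 ± 0.17 and HOOK3 1.27 ± 0.17. Of the 136, 5 higher (3.68%) and 11 lower (8.09%) did not overlap, against 2.51% and 14.0% of the others that passed the minima and 1.32% and 3.51% of all mRNAs tested. The lower T coverage per read of the CNOT4 and ZFP36L1 libraries moves with these results. So does their higher multimapped share, which in CNOT4 is absent at 8 h. The part of either was not tested.

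In the PHF7 arm 8 were higher and 12 lower, where 2.84% of all mRNAs tested were higher and 4.64% lower. These are 5.88% and 8.82% of the 136, against 3.5% and 14.4% of the others that passed the minima. TLE4, a Groucho corepressor, was at 196, 268 and 315 CPM in PHF7 and at 76.0, 143 and 227 CPM in NT (log2 fold 0.82 ± 0.12 SE, edgeR adjusted p = 2.36e-05), with overlap. HOXA9 was at 379.5, 487 and 570.4 CPM in PHF7 and at 241, 274 and 364 CPM in NT (log2 fold 0.79 ± 0.08), with no overlap. The decapping cofactor PNRC2 had a log2 fold of 0.80 ± 0.18 and ZIC5 0.56 ± 0.17. STC2, a secreted glycoprotein, was at 0, 32.3 and 44.7 CPM in PHF7 and at 59.5, 84.4 and 124 CPM in NT (log2 fold -1.43 ± 0.18), without overlap. ZBTB7A, a transcriptional repressor, had a log2 fold of -1.22 ± 0.17, the homeobox factor CDX2 -0.91 ± 0.17 and PIM3 -0.88 ± 0.15. Without the 8 h replicate 3 library of 63659 reads, 42 of the 136 were called in place of 20. Leaving it out changes the test for all mRNAs, so nothing particular to the 136 is read from the rise.

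In the ZMAT5 arm 11 were higher and 16 lower, where 5.30% of all mRNAs tested were higher and 4.39% lower. That is 8.09% and 11.8% of the 136, against 12.6% and 12.1% of the others that passed the minima. CCN1, a secreted matrix protein and target of YAP, was at 197, 298 and 486 CPM in ZMAT5 and at 70.7, 101 and 160.2 CPM in NT, a log2 fold of 1.60 ± 0.13 (SE, edgeR adjusted p = 9.68e-12), and the groups did not overlap. The pro-apoptotic PMAIP1 was at 281, 414 and 480.0 CPM in ZMAT5 and at 147, 248 and 299 CPM in NT (log2 fold 0.75 ± 0.09), and MCL1, its anti-apoptotic partner, at 641, 689 and 893 CPM in ZMAT5 and at 328, 519 and 616 CPM in NT (log2 fold 0.54 ± 0.08). MCL1 did not overlap and PMAIP1 did. YRDC, an enzyme of tRNA modification, had a log2 fold of 0.52 ± 0.11. RHOB was at 49.1, 73.0 and 104 CPM in ZMAT5 and at 102, 167 and 223 CPM in NT (log2 fold -1.11 ± 0.13), overlapping at the edge. SAC3D1 had a log2 fold of -1.06 ± 0.14, THUMPD1, a cofactor of tRNA acetylation, -1.01 ± 0.16 and MYC -0.80 ± 0.18.

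In the ZMAT3 arm 14 were higher and 20 lower, where 4.81% of all mRNAs tested were higher and 4.95% lower. At 10.3% and 14.7% of the 136, these shares were close to the 9.75% and 14.1% of the others that passed the minima. HOXA9 was at 367, 431 and 468 CPM in ZMAT3 and at 234, 263 and 350.4 CPM in NT (log2 fold 0.67 ± 0.06 SE, edgeR adjusted p = 3.14e-09), with no overlap. PNRC2 had a log2 fold of 0.64 ± 0.11, FEM1A, a substrate receptor of a cullin ligase, 0.50 ± 0.12 and ZIC5 0.50 ± 0.15. CDX2 was at 40.7, 55.5 and 68.3 CPM in ZMAT3 and at 62.3, 96.1 and 134 CPM in NT (log2 fold -0.84 ± 0.12), with overlap. SAC3D1 had a log2 fold of -0.71 ± 0.12, HOOK3 -0.61 ± 0.16 and SOCS7 -0.58 ± 0.14, and 99.7% of SOCS7 reads were multimapped.

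In the MAZ arm 5 were higher and 16 lower, where 4.78% of all mRNAs tested were higher and 3.67% lower. The shares were 3.68% and 11.8% of the 136, against 10.2% and 11.2% of the others that passed the minima, so the share called lower was close to theirs. STC2 was at 127, 149 and 196 CPM in MAZ and at 56.9, 80.4 and 118 CPM in NT (log2 fold 0.80 ± 0.11 SE, edgeR adjusted p = 2.99e-06), with no overlap. MSL2, a subunit of a histone acetyltransferase complex, had a log2 fold of 0.62 ± 0.13, PNRC2 0.47 ± 0.10 and PNMA1 0.44 ± 0.13. CCN1 was at 29.7, 56.7 and 85.4 CPM in MAZ and at 70.9, 102 and 163 CPM in NT (log2 fold -0.98 ± 0.14), with overlap. The kinase TAOK2 had a log2 fold of -0.94 ± 0.13, SAC3D1 -0.93 ± 0.13 and ZYG11B, a cullin substrate receptor, -0.69 ± 0.17.

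In the ZNF706 arm 4 were higher and 2 lower, where 2.90% of all mRNAs tested were higher and 2.38% lower, and with the size factors of DESeq2 the counts were 3 and 4. The shares were 2.94% and 1.47% of the 136, against 9.28% and 7.24% of the others that passed the minima. PNMA1 was at 89.0, 153 and 186 CPM in ZNF706 and at 55.5, 99.7 and 138 CPM in NT (log2 fold 0.60 ± 0.13 SE, edgeR adjusted p = 0.00280), with overlap. HOXD13 had a log2 fold of 0.51 ± 0.10, HOXA5 0.41 ± 0.11, MAT2A 0.32 ± 0.10, TAOK2 -0.87 ± 0.16 and THUMPD1 -0.48 ± 0.13. With the 0 h libraries alone MAT2A turned to -0.06 (edgeR adjusted p = 0.977). In the BRCA1 arm PMAIP1 alone was called, lower, and none higher, where 0.0411% of all mRNAs tested were higher and 0.0411% lower. PMAIP1 was at 74.1, 156 and 219 CPM in BRCA1 and at 148, 248 and 302 CPM in NT (log2 fold -0.67 ± 0.14 SE, edgeR adjusted p = 0.0416), with overlap. At an unadjusted p under 0.05 the count was 23 of the 136, with 6 of them higher, and DESeq2 called 1 higher and 3 lower. The PMAIP1 call was lost with the replicate number as a block (edgeR adjusted p = 0.0623), with the 0 h libraries alone (0.999) and without replicate 1 (0.357) or replicate 3 (0.704). In the 6 arms other than ZFP36L1 and CNOT4 the groups did not overlap for 1 higher and 3 lower of the 136 in PHF7 (0.0703% and 1.04% of all mRNAs tested), 2 and 1 in ZMAT5 (0.404% and 0.484%), and 1 and 0 in ZMAT3 (0.0704% and 0.587%). The counts were 1 and 0 in MAZ (0.233% and 0.35%), 0 and 0 in ZNF706 (0.152% and 0.184%), and 0 and 0 in BRCA1 (0% and 0.0165%).

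By role, the 25 transcription factors and cofactors had 9 called higher and 13 lower in the libraries labelled ZFP36L1 (median log2 fold -0.27), 6 and 10 in CNOT4 (-0.52), 4 and 2 in PHF7 (0.03), 3 and 7 in ZMAT3 (-0.22), 1 and 6 in ZMAT5 (-0.21), 1 and 3 in MAZ (-0.14), 2 and 0 in ZNF706 (-0.03), and 0 and 0 in BRCA1 (-0.19). For comparison, 52.2% of the 136 and 45.2% of the others that passed the minima were called lower in ZFP36L1, 41.2% and 41.1% in CNOT4, and 11.8% and 11.2% in MAZ, and with so few mRNAs on a list nothing particular to it is read from its count. The 5 signalling regulators were all lower in ZFP36L1 (median -1.23), and 4 of 5 were lower in CNOT4 (-0.92) and 3 of 5 in MAZ (-0.46), while none was higher in those 3 arms. In ZMAT5 one of the 5, CCN1, was higher and another, RHOB, lower. Of the 6 ubiquitin ligases and adaptors, 4 were lower and none higher in ZFP36L1, 3 lower and 2 higher in CNOT4, and 2 lower in each of PHF7 and ZMAT3. The 6 apoptosis, p53 and stress regulators had 4 lower and 1 higher in ZFP36L1, 4 lower and 2 higher in CNOT4, and 2 higher and none lower in ZMAT5. Of the 9 mRNA decay and RNA-binding factors, 5 were lower and 1 higher in ZFP36L1 and 4 lower and 1 higher in CNOT4, with 1 called in the other 6 arms together, higher in ZMAT3. The 4 cell cycle genes and the 3 metabolic genes had at most 2 calls in any arm.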

How the data were processed

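The authors aligned trimmed reads to hg38 with SlamDunk 0.4.3, keeping reads that map to several places, and deposited per library a table of 69079 3′ UTR intervals. The deposited read counts, multimapped reads, T>C reads, covered T positions and conversions are counts that have not been normalised. The deposited CPM are scaled to the mapped reads of a library, and the rate column is a deposited fraction of covered T positions that read as C. The sources used here name neither a variant mask nor a strand setting, so genes that share bases cannot be told apart there, and reads carry no molecular identifiers.

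Counts were summed per gene (19761 genes, of which GENCODE release 44 names 19501). Expression was tested with edgeR 4.0.16 (quasi-likelihood test, TMM, filterByExpr) in R 4.3.3, on 12 libraries per arm for 1 knockdown and NT, with a factor for chase time. The level over the chase was tested over all 9 arms. Label loss was tested with edgeR on conversions offset by log T coverage, for genes above 5 CPM in 2 or more replicates of each group, as a slope over chase hours or as 8 h against 2 h. Adjusted p-values are Benjamini-Hochberg values over all genes tested, two-sided, and half-lives are the natural log of 2 over the loss per h. DESeq2 1.42.0 and limma 3.58.1 (offset 5e-04 on the rate) served as alternatives. The scripts were tested on simulated data first.

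The 136 mRNAs, the gene lists by role and the tests were chosen with earlier results of these data known, so no p was taken over the 136 alone. NT rates at 0 h and 4 h chose the mRNAs and were given no test. Named mRNAs are the 20 with the lowest NT ratio and at least 200 conversions, the 2 on either side of the limit, up to 4 rises and 4 falls in each expression comparison, the 8 with the smallest p in other tests, and members of the lists. Others named were those in a count of 5 or fewer, or were chosen after their values were seen: RHOB, and MYC in the loss comparison among knockdowns, mRNAs low in all 8 knockdowns or in none, and 11 of the 13 that differed among knockdowns. Of the 136, 2 mRNAs were counted in all totals but are not reported here by name. Replicates are called biological in the methods, and p-values measure the spread between them. Alternatives changed the scaling, the filter, the tool, the measure of label, the libraries included and the replicates left out.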

Additional observations from a re-analysis of the deposited data

Results flagged for a closer look

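Label loss differed among the 8 knockdowns for 13 of 135 fast-losing mRNAs (9.63%), as found by the test of the difference between slopes (edgeR, adjusted over all genes tested). Of all mRNAs tested 2.15% were called. The test has no term for arm-wide shifts, so nothing particular to these mRNAs is read from the calls. By limma on log2 rates the calls were not kept. The adjusted p was 0.00210 for HOXA9, 0.00498 for FOXC1, 0.00498 for FIGNL1, 0.00855 for RAB3GAP1, 0.0199 for XIAP, 0.0304 for PPP4R2 and 0.0316 for RSRP1. It was 0.0339 for TLE4, 0.0396 for PIM3, 0.0397 for JARID2 and 0.0397 for MYC. XIAP lost 0.548 ± 0.057 per h in BRCA1 and 0.242 ± 0.047 per h in CNOT4 (SE), and TLE4 0.584 ± 0.066 per h in BRCA1 and 0.246 ± 0.046 per h in ZMAT5. RSRP1 went another way, with 0.501 ± 0.059 per h in PHF7, the fastest, and 0.212 ± 0.043 per h in ZMAT5, the slowest. XIAP rates at 0 h in BRCA1 were 1.61%, 2.49% and 0.349%, so 1 library at the start lay well below the other 2. The part of depth and of sparse counts in the BRCA1 slopes was not tested.

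Label loss between 2 h and 8 h differed between the knockdowns as a group and NT for RCHY1 (edgeR adjusted p = 0.0107), ZFP36L2 (0.0262) and MAT2A (0.0378), all slower in the knockdowns. Of all mRNAs tested 1.77% were called in either direction. The 8 h rates of ZFP36L2 in the knockdowns, 0.0330% and up, lay above the 3 NT rates, of which the highest was 0.0181%.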

How the results depend on the processing

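The choice of the 136 depends on the minima and the time used: 45 were shared with a CPM minimum of 10, 29 with one of 50, 52 with 2 h over 0 h, 56 with 8 h over 0 h, and 85 to 96 with a replicate left out. With the 0 h libraries alone, the members called in expression were 42 for ZFP36L1, 36 for CNOT4, 6 for PHF7, 4 for ZMAT5, 1 for ZMAT3, and 0 for BRCA1, MAZ and ZNF706 (10, 36 and 19 at an unadjusted p under 0.05 by edgeR), from 3 libraries against 3 in place of 12 against 12. MAT2A in ZNF706 then reversed, to a log2 fold of -0.0551 (edgeR adjusted p = 0.977). DESeq2 called 4 for BRCA1, 37 for PHF7 and 10 for ZNF706, no filter gave 2 for BRCA1, and leaving out the PHF7 8 h replicate 3 library gave 42 for PHF7. With 1 replicate left out the counts ran 84 to 90 for ZFP36L1, 51 to 87 for CNOT4, 7 to 27 for PHF7, 13 to 21 for ZMAT3, 12 to 17 for ZMAT5, 10 to 15 for MAZ, 3 to 7 for ZNF706 and 0 to 1 for BRCA1 (12 and 21 unadjusted in the 2 fits at 0). For the level over the chase, DESeq2 size factors gave 34, DESeq2 itself 45, leaving out CNOT4 and the PHF7 8 h replicate 3 library 42, leaving out only the CNOT4 2 h replicate 3 library 35, NT alone 0 (12 unadjusted), and leaving out a replicate 1 to 29. For loss in NT between 2 h and 8 h a replicate left out gave 40 to 53. For loss among the knockdowns, limma gave 0 (18 unadjusted), 0 to 4 h alone 0 (7 unadjusted), leaving out CNOT4 and ZFP36L1 4, and leaving out a replicate 0 (9 unadjusted) to 11. For the knockdowns against NT over 2 to 8 h, limma gave 0 (4 unadjusted), T>C reads 5, a CPM minimum of 20 1, leaving out CNOT4 and the PHF7 8 h replicate 3 library 6, and leaving out a replicate 0 (2 and 4 unadjusted) to 12. Apart from fewer samples or fewer mRNAs fitted, the cause of these shifts was not tested. The alternative tests act on all mRNAs tested, so nothing particular to the 136 is read from a rise or fall in the members called. Of 752 values of the 82 named results under alternatives, 625 kept the call, 126 lost it and 1 reversed in direction. Direction was compared only for results with a single estimate. It was not compared for the level over the chase or for loss among the knockdowns. DESeq2 size factors moved the median of all genes by -0.02 to 0.02 (log2).

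The replicate numbers showed no pairing of the samples in the 96 pairs of same-numbered libraries compared. Of these, 0 had deviations correlated over 0.1 (-0.033 to 0.023), and 52 correlated more with their own number than with the mean of the other numbers. Pairing across the chase times of an arm was not tested. With the number as a block, the counts in expression were 99 for ZFP36L1, 80 for CNOT4, 36 for ZMAT3, 27 for ZMAT5, 21 for MAZ, 20 for PHF7, 5 for ZNF706 and 0 for BRCA1 (23 unadjusted), those over the chase 22, in NT 87, among the knockdowns 11 and for the knockdowns against NT 2.

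Depth limits the lowest rates most: a rate at 8 h can rest on a handful of conversions, and 1 library of 63659 reads decides which mRNAs enter the PHF7 arm when a replicate is left out. Such limits cover counting error only.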

Other observations

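The homeobox genes among the fast-losing mRNAs did not move alike in level. HOXA5 was called higher in CNOT4 (log2 fold 1.22 ± 0.15 SE, edgeR adjusted p = 3.17e-07), ZFP36L1 (1.29 ± 0.10) and ZNF706 (0.41 ± 0.11). Its neighbour HOXA9 was called higher in PHF7 (0.79 ± 0.08), ZMAT3 (0.67 ± 0.06) and ZFP36L1 (0.33 ± 0.08), and HOXA10 higher in ZFP36L1 (0.35 ± 0.09) and lower in CNOT4 (-0.67 ± 0.12). HOXB8 was called lower in CNOT4 (-2.02 ± 0.34), ZFP36L1 (-1.73 ± 0.17) and ZMAT3 (-0.44 ± 0.12). HOXD13 was called lower in CNOT4 (-1.07 ± 0.14) and ZFP36L1 (-0.62 ± 0.11) and higher in MAZ (0.37 ± 0.11), ZMAT5 (0.38 ± 0.10) and ZNF706 (0.51 ± 0.10). CDX2, a regulator of HOX genes, was called lower in CNOT4 (-1.02 ± 0.22), PHF7 (-0.91 ± 0.17), ZFP36L1 (-1.53 ± 0.14) and ZMAT3 (-0.84 ± 0.12).

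Of the mRNAs for RNA-binding and decay proteins, TENT4B, a poly(A) polymerase of RNA surveillance, was called higher in CNOT4 (log2 fold 0.59 ± 0.14) and ZFP36L1 (0.79 ± 0.12). ZFP36L2 was called lower in those arms (-0.76 ± 0.16 and -0.71 ± 0.13), and so was PNRC2 (-0.70 ± 0.15 and -0.75 ± 0.12), which was called higher in MAZ, PHF7, ZMAT3 and ZMAT5 by 0.47 to 0.80. CNOT10, a subunit of CCR4-NOT, was called in none of the 8 comparisons. TENT4B and PNRC2 are not on the list of mRNA decay and RNA-binding factors, while ZFP36L2 stands both on it and on that of transcription factors. These genes were picked after their values were seen, directions for ZFP36L1 rest on its label, and the comparisons share the NT libraries.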
